A study of Mus musculus with 6 samples.

Results

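The genes described here carry glucose from the cell surface to the citrate cycle. They are 43 genes chosen by symbol, not by their values, out of the 19831 genes listed, and every one of them was found and had a mean of 10 normalized counts or more. By the main site of their proteins, 22 belong to the cytosol or plasma membrane (glucose transporters, glycolysis, lactate dehydrogenases, lactate transporters and cytosolic malate dehydrogenase) and 21 to the mitochondrion (pyruvate carrier, pyruvate dehydrogenase and its kinases, citrate cycle). RNA sequencing was done on inguinal adipose tissue (iAT), a subcutaneous fat depot, of mice at postnatal day 6, with 3 wild-type (WT) samples and 3 samples from mice in which *Npffr1*, the gene of neuropeptide FF receptor 1, was ablated (Npffr1-KO). All mice were kept under SPF conditions and no treatment is named. The labels give neither sex, strain, litter, the cells in which the receptor was lost nor the number of animals per sample. The methods of the paper describe its own young mice as male and of the C57BL/6 strain, without naming the Npffr1-KO mice. Because the whole tissue was extracted, fewer cells of a type and less RNA per cell cannot be told apart.

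Glycolysis splits glucose into pyruvate in the cytosol and yields ATP and NADH. Pyruvate is either reduced to lactate and exported, or carried into the mitochondrion, where pyruvate dehydrogenase makes acetyl-CoA for the citrate cycle. In white adipocytes the route also supplies glycerol 3-phosphate and citrate for fat storage, and in thermogenic adipocytes it feeds a high rate of oxidation. Several steps exist as isoforms from separate genes, which differ by tissue.

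The deposited table holds 1 value per gene and genotype, on the scale of normalized counts (reads scaled by the authors to a common library size). The values of a gene average to its mean over the 6 libraries, and their ratio is drawn towards 1 where reads are few. A listed value can therefore differ from the mean of that genotype's own libraries. No SD and no n can be attached to a genotype value. For 42 of the 43 genes it cannot be said whether a difference exceeds the spread between samples. Ratios below are therefore descriptions without a test. A gene is called past the fold when the higher of its genotype values exceeds the lower by at least 25%, a log2 ratio of 0.32 in size. The values over all genes added up to 23137343 normalized counts in WT and 23640005 in Npffr1-KO, and the 43 genes made up 0.839% of the first sum and 1.05% of the second. *Npffr1* itself was listed at 1.12 and 0.855 normalized counts. The WT libraries held 1, 0 and 5 reads of it and those of Npffr1-KO 0, 0 and 0, too few to check the labels firmly. The adipocyte markers *Fabp4*, *Adipoq* and *Pnpla2* stood at 156285, 37027 and 34348 normalized counts in WT, so the defining transcripts of adipocytes were abundant in the labelled tissue.

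The Npffr1-KO value was above the WT value for 42 of the 43 genes, where 51.2% of all 15309 genes averaging 10 normalized counts or more lay above. It was higher and past the fold for 23 of the 43, against 12.0% of all genes, and lower and past the fold for 0 of the 43, against 11.6% of all genes. The median log2 ratio of the 43 genes was 0.33, from -0.0038 for *Hk1* to 0.95 for *Ldhb*, while the median of all genes was 0.01. Summed over the 43 genes, the genotype values were 194096 and 249368 normalized counts, a log2 ratio of 0.36. The last gene past the fold was *Dlst* at 1.2504-fold, and the next was *Mdh1* at 1.2455-fold, so the count of 23 turns on small steps near the threshold.

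**Figure D1:**
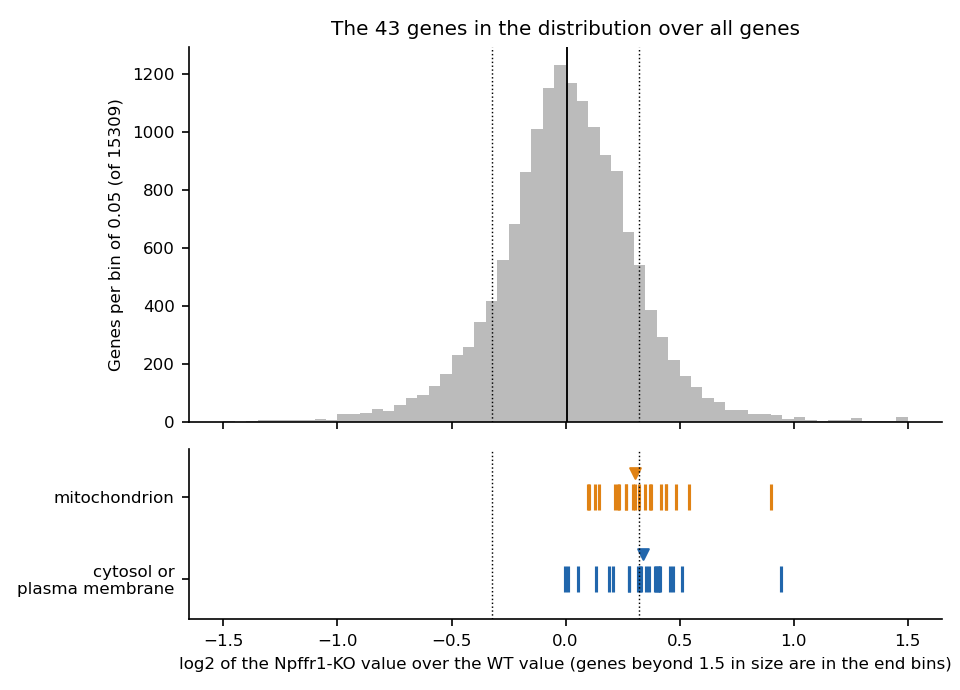
Upper panel: number of genes (vertical axis) by the log2 of the Npffr1-KO value over the WT value (horizontal axis), for all 15309 genes averaging 10 normalized counts or more, with a solid line at their median. Lower panel: the same ratio for each of the 22 cytosolic or plasma membrane genes and the 21 mitochondrial genes, 1 tick per gene, with a triangle at each median (0.34 and 0.30) and dotted lines at the fold, where all ticks but that of *Hk1* lie above 0.

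A trend of gene length runs through the whole table and touches these values. The median log2 ratio of the length classes that hold members ran from 0.21 among short genes to -0.13 among long ones, over 20 classes of equal size. With each gene centred on the median of its class, 42 of the 43 genes still lay above 0, and 16 were higher and past the fold, against 8.19% of all genes. The median of the 43 genes was then 0.25. Length-centred values are given below for those of the 43 genes whose call they change.

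The isoform pairs among the 43 genes that parted the most were *Ldha* with *Ldhb* and *Sucla2* with *Suclg2*, and the 250 bases before the start of each of these 4 genes are shown so that their upstream sequences can be compared. The sequences are from RefSeq on GRCm38.p6, and the strand is that of the gene. Capitals mark the letters ACGTG or CACGT, a form of the core of the hypoxia response element on either strand. Other forms of that core were not searched for. *Ldha* (chr7:46845554-46845803, plus strand, the first of its 2 listed starts), *Ldhb* (chr6:142507958-142508207, minus strand), *Sucla2* (chr14:73552536-73552785, plus strand) and *Suclg2* (chr6:95718847-95719096, minus strand) read as follows.
Ldha: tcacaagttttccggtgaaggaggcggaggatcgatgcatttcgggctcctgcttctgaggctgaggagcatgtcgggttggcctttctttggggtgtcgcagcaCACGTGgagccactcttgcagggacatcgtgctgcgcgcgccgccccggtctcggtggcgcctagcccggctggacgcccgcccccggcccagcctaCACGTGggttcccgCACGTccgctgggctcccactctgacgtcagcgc
Ldhb: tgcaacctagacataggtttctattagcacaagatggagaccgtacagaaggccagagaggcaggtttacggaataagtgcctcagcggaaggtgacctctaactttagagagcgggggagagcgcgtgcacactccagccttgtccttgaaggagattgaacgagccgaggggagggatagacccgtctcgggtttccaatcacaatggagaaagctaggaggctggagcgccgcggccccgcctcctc
Sucla2: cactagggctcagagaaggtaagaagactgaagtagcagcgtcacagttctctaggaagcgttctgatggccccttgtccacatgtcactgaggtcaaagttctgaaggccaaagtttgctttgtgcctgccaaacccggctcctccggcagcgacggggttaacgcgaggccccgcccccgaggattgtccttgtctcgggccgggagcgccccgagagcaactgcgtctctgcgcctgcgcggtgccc
Suclg2: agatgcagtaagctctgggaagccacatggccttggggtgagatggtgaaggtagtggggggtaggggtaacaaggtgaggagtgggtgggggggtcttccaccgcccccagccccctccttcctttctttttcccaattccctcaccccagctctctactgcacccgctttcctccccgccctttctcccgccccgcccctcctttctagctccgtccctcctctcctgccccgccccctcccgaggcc
The window of *Ldha* holds this form of the core at 3 separate places, at 2 of them as the palindrome CACGTG, which counts on both strands. The windows of *Ldhb*, *Sucla2* and *Suclg2* hold it at 0 places, which says only that these letters are not in these 250 bases.

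Starts were listed for 41 of the 43 genes, with 60 windows in all; *Idh3a* and *Slc2a4* had none. The searched form of the hypoxia response core lay in 23 of the 60 windows (38.3%) and in 20.5% of the 15283 windows of all genes above that minimum. By compartment it lay in 13 of 32 windows of cytosolic or plasma membrane genes and in 10 of 28 windows of mitochondrial genes. The letters GCATGCGC, a core of the NRF1 site, lay in 4 of the 60 windows (6.67%) and in 3.79% of all windows, either strand counted. The letters AAGGTCA, a core of the site of oestrogen-related receptors, lay in 1 of the 60 (1.67%) and in 3.00% of all windows. These matches are descriptions of sequence, and no binding was measured.

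Glucose enters through the transporters GLUT1 (*Slc2a1*), found in most cells, and GLUT4 (*Slc2a4*), the insulin-responsive form of fat and muscle. *Slc2a4* was the higher per kb of gene length, at 1200 normalized counts per kb in WT and 1316 in Npffr1-KO, against 284 and 286 for *Slc2a1*. Neither was past the fold, with log2 ratios of 0.13 for *Slc2a4* and 0.01 for *Slc2a1*. These are among the smallest ratios of the 43 genes.

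The first phosphorylation of glucose is made by hexokinases. *Hk1*, the form found in most tissues, was listed at 1841 normalized counts in WT and 1836 in Npffr1-KO, the only ratio of the 43 below 0. *Hk2*, the insulin-responsive form, stood at 890 and 1177 normalized counts, a log2 ratio of 0.40. The share of *Hk2* in the hexokinase sum per kb was 26.6% in WT and 32.5% in Npffr1-KO.

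*Gpi1*, which turns glucose 6-phosphate into fructose 6-phosphate, stood at 8785 and 11200 normalized counts, a log2 ratio of 0.35. The next step, phosphofructokinase, is a control point of glycolysis and has a liver, a muscle and a platelet form. The liver form *Pfkl* was listed at 2125 and 3025 normalized counts, a log2 ratio of 0.51, rank 4 of the 43. The muscle form *Pfkm* (611 and 698, log2 ratio 0.19) and the platelet form *Pfkp* (1427 and 1483, log2 ratio 0.06) were not past the fold. Per kb, *Pfkl* thus made up 50.1% of the phosphofructokinase sum in WT and 57.0% in Npffr1-KO, with *Pfkp* at 31.2% and 25.9%.

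Aldolase cleaves the 6-carbon sugar. *Aldoa*, its main form in muscle and fat, was the second highest of the 43 genes per kb, at 12133 and 14698 normalized counts per kb, and was not past the fold at a log2 ratio of 0.28. *Aldoc*, the brain form, was the lowest of the 43, at 9.07 and 10.5 normalized counts per kb. It is also the one gene of the 43 whose reads could be recovered per library, as described below. Triose phosphate isomerase (*Tpi1*), which interconverts the products of that cleavage, stood at 6493 and 8518 normalized counts, a log2 ratio of 0.39 that was 0.27 and not past the fold once centred on length.

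All 6 genes of lower glycolysis were past the fold, with log2 ratios between 0.33 and 0.47. *Gapdh*, which makes NADH and is the highest of the 43 genes per kb (18507 in WT and 24373 in Npffr1-KO), stood at 24614 and 32416 normalized counts, a log2 ratio of 0.40. The ATP-making step of phosphoglycerate kinase, *Pgk1*, was listed at 2922 and 4012 normalized counts, a log2 ratio of 0.46. *Pgam1*, the mutase that follows, was at 3540 and 4716, a log2 ratio of 0.41. The genes of this stretch thus lay in a narrow band, although their levels per kb in WT ranged from 276 for *Eno3* to 18507 for *Gapdh*.

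Enolase has a ubiquitous form, *Eno1*, and a muscle form, *Eno3*. *Eno1* was listed at 10545 and 13255 normalized counts, a log2 ratio of 0.33, and *Eno3* at 417 and 577, a log2 ratio of 0.47. *Eno1* made up 95.4% of the enolase sum per kb in WT and 95.0% in Npffr1-KO. Pyruvate kinase (*Pkm*), the last step, stood at 8380 and 11139 normalized counts, a log2 ratio of 0.41. With length centring *Pgk1*, *Pgam1*, *Eno3* and *Pkm* stayed past the fold, and *Gapdh* (0.23) and *Eno1* (0.25) did not.

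**Figure D2:**
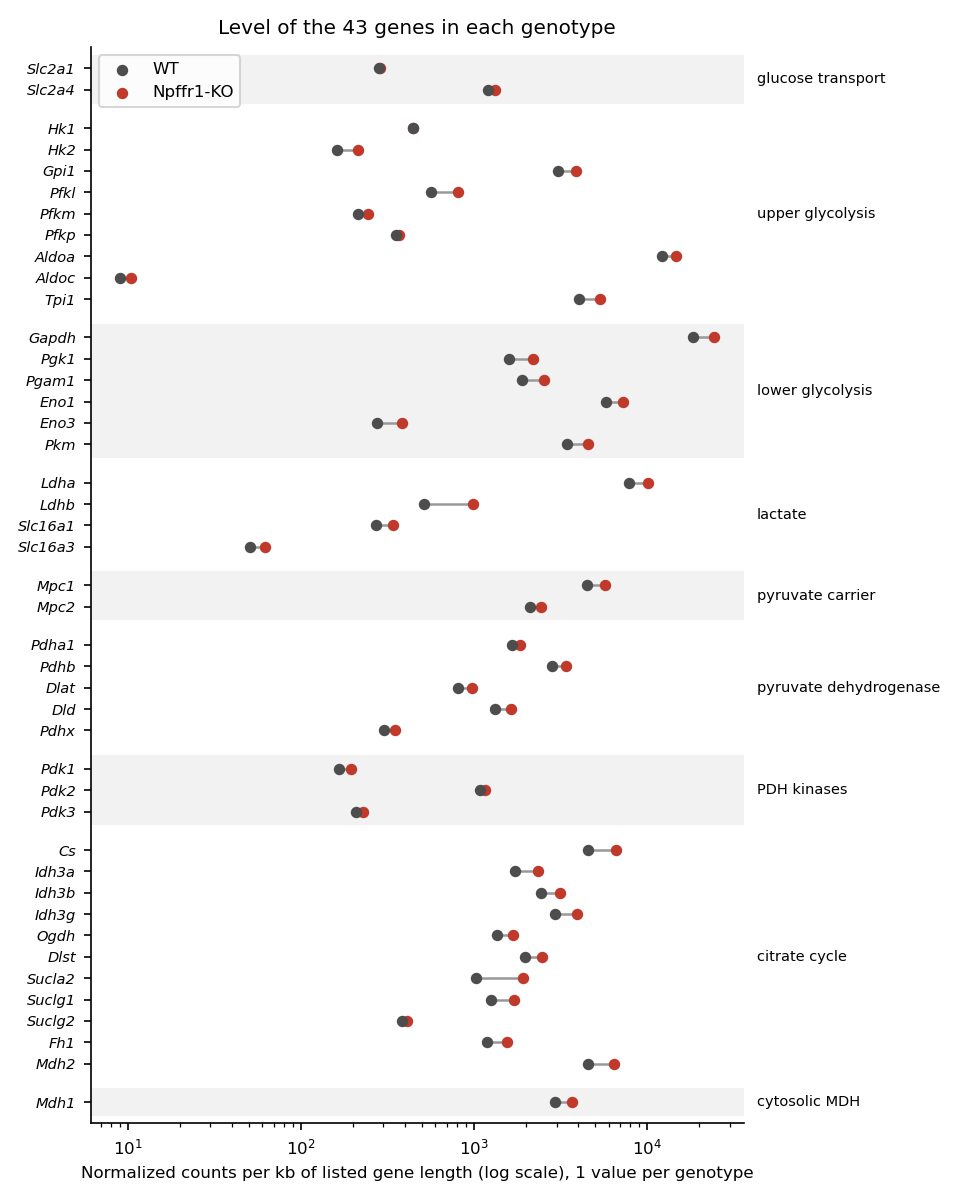
Normalized counts per kb of listed gene length (horizontal axis, log scale) of the 43 genes (rows, grouped by step), with the WT value in grey and the Npffr1-KO value in red, 1 authors' value per genotype. The line between the points is longest for *Ldhb* and *Sucla2*, and levels run from 9.07 for *Aldoc* to 18507 for *Gapdh* in WT.

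Lactate dehydrogenase is a tetramer of A and B subunits. The A subunit gene *Ldha*, typical of glycolytic tissue, was listed at 13076 normalized counts in WT and 16869 in Npffr1-KO, a log2 ratio of 0.37. The B subunit gene *Ldhb*, typical of oxidative tissue such as heart, was at 689 and 1326 normalized counts, a log2 ratio of 0.95, the highest of the 43 and above 99.4% of all genes. Per kb, *Ldha* exceeded *Ldhb* 15.3-fold in WT and 10.2-fold in Npffr1-KO, and the B share of the sum was 6.14% and 8.90%. After length centring *Ldhb* stayed past the fold, at 0.77, and *Ldha* did not, at 0.25.

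Lactate and pyruvate cross the plasma membrane through monocarboxylate transporters. MCT1 (*Slc16a1*) stood at 1201 and 1505 normalized counts, a log2 ratio of 0.33, just past the fold. MCT4 (*Slc16a3*), common in highly glycolytic cells, was low at 125 and 152 normalized counts, a log2 ratio of 0.28. MCT1 made up 84.2% of the sum of both per kb in WT and 84.6% in Npffr1-KO.

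Pyruvate enters the mitochondrion through a carrier made of MPC1 and MPC2. *Mpc1* was listed at 4077 and 5188 normalized counts, a log2 ratio of 0.35, and *Mpc2* at 1791 and 2098, a log2 ratio of 0.23. Both are short genes, and with length centring their ratios were 0.14 and 0.02. *Mpc1* made up 68.2% of the carrier sum per kb in WT and 69.9% in Npffr1-KO.

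None of the 5 subunit genes of the pyruvate dehydrogenase complex was past the fold, all 5 having log2 ratios between 0.14 and 0.30. *Pdha1* and *Pdhb*, which encode the subunits of the decarboxylase E1, had ratios of 0.14 and 0.27. *Dlat*, the acetyltransferase E2, had 0.26 and *Dld*, the dehydrogenase E3 that is shared with other complexes, had 0.30. *Pdhx*, which anchors E3, had 0.22. The shares of the 5 subunits in their sum per kb differed between genotypes by no more than the 1.56 points of *Pdha1*, which was 24.1% in WT and 22.5% in Npffr1-KO. With length centring *Dlat* passed the fold at 0.33.

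Pyruvate dehydrogenase kinases switch the complex off. *Pdk2* was the highest of the 3 listed kinases per kb, at 1083 and 1160 normalized counts per kb, followed by *Pdk3* (210 and 229) and *Pdk1* (166 and 195). Their log2 ratios were 0.10, 0.13 and 0.24, none past the fold as deposited. With length centring *Pdk1* passed it at 0.34. Another kinase, *Pdk4*, which fasting and fatty acids induce and which is no member of the list of 43, was listed at 736 and 1458 normalized counts, a log2 ratio of 0.99. Counted with it, the share of *Pdk2* in the kinase sum per kb was 64.8% in WT and 57.8% in Npffr1-KO, and that of *Pdk4* 12.8% and 21.0%.

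Of the 11 mitochondrial citrate cycle genes, 9 were past the fold, with a median log2 ratio of 0.42. Citrate synthase (*Cs*), which opens the cycle, was listed at 12825 normalized counts in WT and 18646 in Npffr1-KO, a log2 ratio of 0.54, the third of the 43. The subunits of the NAD-dependent isocitrate dehydrogenase lay close together, with *Idh3a* at 0.44, *Idh3b* at 0.37 and *Idh3g* at 0.42. Their shares in the sum per kb differed between genotypes by no more than 0.80 points. With length centring *Idh3b* and *Idh3g* were no longer past the fold, at 0.27 and 0.25.

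The oxoglutarate dehydrogenase complex is built like pyruvate dehydrogenase and uses the same E3. Its E1 gene *Ogdh* stood at 9066 and 11180 normalized counts and its E2 gene *Dlst* at 5465 and 6834, with log2 ratios of 0.30 and 0.32. *Ogdh* is the longest of the 43 genes at 6632 bases, and its length-centred ratio was 0.43, past the fold. That of *Dlst* was 0.30, no longer past the fold.

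Succinate-CoA ligase pairs the shared alpha subunit (*Suclg1*) with a beta subunit for ADP (*Sucla2*) or for GDP (*Suclg2*). *Sucla2* was listed at 2181 normalized counts in WT and 4072 in Npffr1-KO, a log2 ratio of 0.90, the second of the 43 and above 99.3% of all genes. *Suclg2* was at 1320 and 1418, a log2 ratio of 0.10, and *Suclg1* at 1771 and 2401, a log2 ratio of 0.44. Per kb, *Sucla2* exceeded *Suclg2* 2.70-fold in WT and 4.70-fold in Npffr1-KO, and its share of the beta sum was 73.0% and 82.4%. This was the widest gap among the pairs of members compared, a difference of 0.80 between their log2 ratios, and *Sucla2* stayed at 0.82 after length centring.

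Fumarase (*Fh1*) stood at 1967 and 2544 normalized counts, a log2 ratio of 0.37. Mitochondrial malate dehydrogenase (*Mdh2*), which closes the cycle, was at 5942 and 8307, a log2 ratio of 0.48, and the cytosolic form (*Mdh1*), which works in the malate shuttle, at 5781 and 7201, a log2 ratio of 0.32. The share of *Mdh2* in the sum of both per kb was 60.8% in WT and 63.5% in Npffr1-KO. With length centring, *Fh1*, *Mdh1* and *Mdh2* had ratios of 0.25, 0.24 and 0.31, none past the fold.

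**Figure D3:**
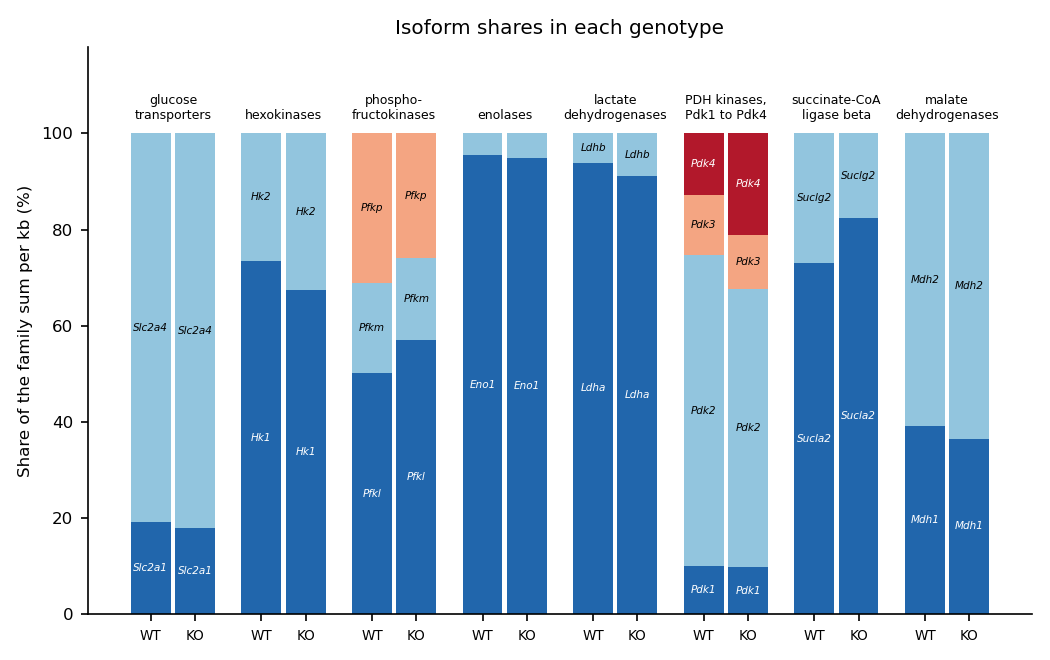
Share of each gene in the sum of its family, in normalized counts per kb (vertical axis, percent), for WT and Npffr1-KO (paired bars, 1 authors' value per genotype, so no error bar). The *Sucla2* segment is 73.0% in WT and 82.4% in Npffr1-KO, and the *Pfkl* segment 50.1% and 57.0%, while the glucose transporter and enolase bars look alike.

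Set side by side, the cytosolic or plasma membrane genes and the mitochondrial genes had similar ratios. The median log2 ratio was 0.34 for the 22 former, of which 13 were past the fold, and 0.30 for the 21 latter, of which 10 were. The quartiles of the ratios ran from 0.22 to 0.41 in the cytosol or plasma membrane and from 0.23 to 0.42 in the mitochondrion. Both medians were 0.25 after length centring, with 9 of the 22 and 7 of the 21 past the fold. The medians of the steps lay further apart, but they rest on fewer genes and so vary more. In the cytosol or plasma membrane, glucose transport (2 genes) had 0.07, upper glycolysis (9) 0.28, lower glycolysis (6) 0.41 and the lactate genes (4) 0.35. In the mitochondrion, the pyruvate carrier (2) had 0.29, pyruvate dehydrogenase kinases (3) 0.13, pyruvate dehydrogenase (5) 0.26 and the citrate cycle (11) 0.42. None of these differences was tested.

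**Figure D4:**
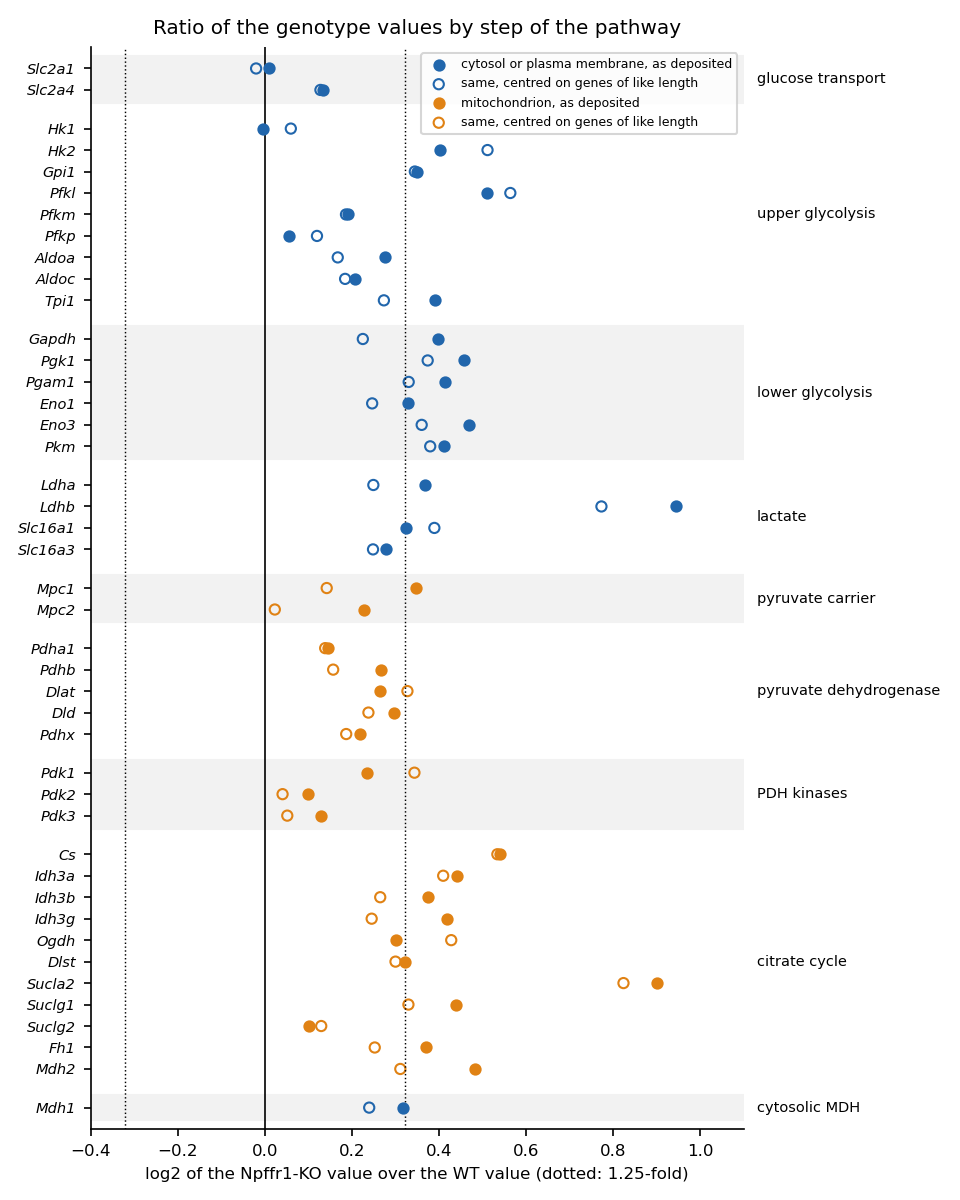
The log2 of the Npffr1-KO value over the WT value (horizontal axis) for the 43 genes (rows, grouped by step), as deposited (filled) and centred on genes of like length (open), in blue for cytosolic or plasma membrane genes and in orange for mitochondrial ones, with dotted lines at the fold. All 6 filled points of lower glycolysis and 9 of the 11 of the mitochondrial citrate cycle lie past the right line, and none of the 5 of pyruvate dehydrogenase does.

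Level did not separate these genes cleanly. Of the 33 with a WT value of at least 1000 normalized counts, 20 were past the fold, with a median log2 ratio of 0.35. Of the 10 below, 3 were (*Hk2*, *Eno3* and *Ldhb*), with a median of 0.23.

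Some of the 43 transcripts share sequence with other genes or pseudogenes, and their values are uncertain where the counting could split reads. Of the different 31-base words in the GENCODE M21 transcripts of *Aldoa*, 79.3% occur in other genes. The share was 54.7% for *Pgk1*, 37.1% for *Pgam1*, 34.7% for *Pkm*, 33.0% for *Ldhb*, 28.5% for *Eno1*, 27.2% for *Gapdh* and 20.6% for *Suclg2*. Without these 8 genes, 17 of the other 35 were past the fold. For *Sucla2* the share was 0.0997%.

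Reads per library could be recovered only for genes averaging at most 100 normalized counts, of which *Aldoc* is the single member. Its reads divided by the size factor were 19.3, 22.5 and 29.8 in WT and 21.2, 27.2 and 37.1 in Npffr1-KO, a mean of 23.9 ± 5.36 (SD, n = 3) against 28.5 ± 8.02 (SD, n = 3). The genotypes overlapped. The difference was 0.24 ± 0.35 (SE) on the log2(value + 0.5) scale, with an adjusted p of 0.83 by limma over the 2841 genes fitted, and an exact two-sided permutation test gave p = 0.6, where 0.1 is the smallest that 3 against 3 allows. With 1 library left out at a time the difference lay between 0.03, without the Npffr1-KO library of smallest size factor, and 0.43, without the Npffr1-KO library of largest size factor. Without the WT library of largest size factor it was 0.10, and without that of smallest size factor 0.41. Over all these genes 0 of 2841 (0%) passed an adjusted p of 0.05 by limma, 337 had an unadjusted p under 0.05, and 481 (16.9%) had libraries that did not overlap between genotypes.

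**Figure D5:**
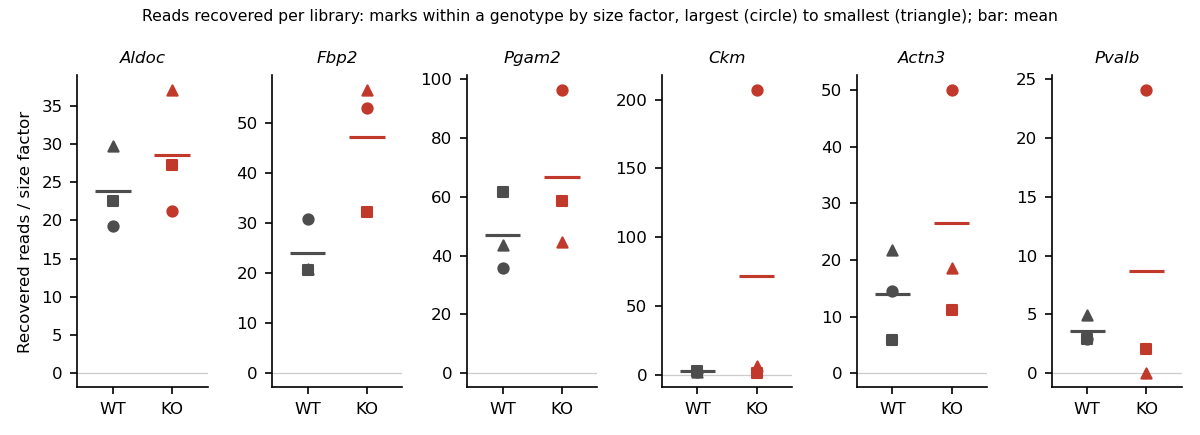
Recovered reads divided by the size factor (vertical axes, starting near 0, a scale for each gene) in the 3 WT (grey) and 3 Npffr1-KO (red) libraries for *Aldoc*, for the pathway genes *Fbp2* and *Pgam2*, and for the muscle genes *Ckm*, *Actn3* and *Pvalb*, with bars at the means and marks by size factor within a genotype. The Npffr1-KO library with the largest size factor stands at 207 for *Ckm*, where the other 5 lie between 1.01 and 6.55.

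Among 59 other genes of the pathway, 57 were listed and 49 had a mean of at least 10. Of these 49, 18 were past the fold with the higher value in Npffr1-KO, against 12.0% of all genes. The lower value in Npffr1-KO was past the fold for 3, against 11.6% of all genes. Their median log2 ratio was 0.21, where that of all genes was 0.01. Besides *Pdk4*, the genes with the largest ratios included *Fbp2*, the muscle form of fructose bisphosphatase (25.9 and 45.6 normalized counts, log2 ratio 0.82). *Pdp2*, a phosphatase that reactivates pyruvate dehydrogenase, was at 100 and 150 (0.58), and *Pdpr*, a regulatory subunit of such a phosphatase, at 45.1 and 30.6 (-0.56). The succinate dehydrogenase subunits *Sdhb* (0.50) and *Sdhd* (0.49) and the mitochondrial malic enzyme *Me2* (0.50) were also among the 8 largest. With length centring *Sdhb* (0.297) and *Sdhd* (0.318) fell short of the fold, a log2 ratio of 0.322. Of the 49 genes, 10 were then higher and past the fold, against 8.19% of all genes. Lower and past the fold were 4, against 1777 of all 15309 genes.

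*Fbp2* was recovered at 30.9, 20.6 and 20.8 in WT and at 53.0, 32.3 and 56.7 in Npffr1-KO. The genotypes did not overlap, with a limma difference of 0.94 ± 0.34 (SE) and an adjusted p of 0.30, and p = 0.1 in the exact permutation test, its smallest. Of the 2841 genes with recovered reads, 481 (16.9%) did not overlap. *Pdpr* was recovered at 30.9, 58.7 and 49.6 in WT and at 32.8, 33.3 and 21.8 in Npffr1-KO. Its genotypes overlapped, with a limma difference of -0.63 ± 0.34 (SE) and an adjusted p of 0.47. *Fbp2* and *Pdpr* were named for the size of their ratios in these same data, so their tests are no independent support.

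Markers of other cell types were compared between the genotypes as well, by their listed values and without a test. All 9 skeletal muscle markers with a mean of at least 10, of 11 listed, were higher and past the fold, against 12.0% of all genes. Their median log2 ratio was 0.75. Their listed values summed to 550 normalized counts in WT and 1026 in Npffr1-KO, and *Myh4* was near 0 with 1 read in all libraries. *Ckm* was listed at 27.5 and 46.4 normalized counts, where its recovered libraries averaged 2.28 in WT and 71.6 in Npffr1-KO. By library, *Ckm* was 1.93, 2.94 and 1.98 in WT and 207, 1.01 and 6.55 in Npffr1-KO, so 1 Npffr1-KO library held nearly all of its reads. *Pvalb* was highest in that library too, at 24.1, where the other 5 ran from 0 to 4.96, and so was *Actn3*, at 50.1, where the other 5 ran from 5.87 to 21.8. *Mb*, the myoglobin gene, was not: it was 12.6, 2.94 and 2.98 in WT and 13.5 in that library, 11.1 and 22.9 in the other Npffr1-KO libraries. *Eno3*, *Pfkm*, *Aldoa*, *Slc2a4* and *Hk2*, which skeletal muscle also expresses, could not be read by library. Without them the median of the cytosolic or plasma membrane genes was 0.35 in place of 0.34. Of these genes *Slc2a4* (0.13), *Pfkm* (0.19) and *Aldoa* (0.28) lay below 0.34, and *Hk2* (0.40) and *Eno3* (0.47) above it. Leaving them out could therefore hardly move the median, and no other member was left out for this value. The part of skeletal muscle in the ratios was not tested.

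The thermogenic adipocyte markers stood further apart. Of 8, 7 had a mean of at least 10 and 6 of these were past the fold, with a median log2 ratio of 1.66 and a summed level of 1649 normalized counts in WT and 5464 in Npffr1-KO. *Cox8b* was at 460 and 1567, *Ucp1* at 438 and 1287 and *Cidea* at 304 and 1427 normalized counts, while *Elovl3* was near 0 at 0.452 and 0.511. All 7 T cell markers were past the fold, with a median of 0.65 and sums of 7740 and 12221. Of 6 adipocyte markers 1 was past the fold (median 0.15), of 5 macrophage markers 1 (median 0.24), and of 5 erythroid markers 1 (median 0.23). The 3 endothelial markers had a median of -0.28, with 1 past the fold downward, and of 4 keratinocyte markers 3 were under a mean of 10. For all these counts, 12.0% of all 15309 genes averaging 10 normalized counts or more were higher and past the fold, and 11.6% lower. The part of these cell types in the ratios of the 43 genes was not tested.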

How the data were processed

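The authors extracted total RNA of inguinal adipose tissue with TRIzol and sequenced 3 WT and 3 Npffr1-KO samples, groups taken from the labels. The submitters' processing notes name Bowtie2, RSEM and DESeq2 without version or role. Genome build and annotation: not given in the sources used here. The authors deposited 1 signal value per gene and genotype, on the scale of read counts normalized for library size, and the gene length in bases. Columns with the authors' own comparison of the genotypes (log2 fold change, p-value, adjusted p-value) and a second deposited table selected by that comparison were not used. For this experiment the paper points to an earlier study.

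The 2 values of a gene average to the mean of the normalized counts over the 6 libraries, and their ratio is drawn towards 1 where reads are few: against recovered reads, the median share of the log2 difference kept was 0.293 at means of 0.5 to 10, 0.764 at 10 to 50 and 0.896 at 50 to 100. Genes with only 1 read take 6 distinct values, which give size factors of 0.916 to 1.04 and each library's genotype, not its sample number. For genes with a mean of 10 to 100, all combinations of whole reads were searched, and 2841 of 3090 (91.9%) had exactly 1 that matched. In simulated reads 2074 of 2074 genes at means of 10 to 50 and 756 of 930 (81.3%) at 50 to 100 had exactly 1 solution, which was right for each of them. These genes summed to 88800 to 110336 reads per library. The depth of the whole libraries is unknown.

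Log2 ratios used no pseudocount and a minimum mean of 10. Recovered reads were tested with limma 3.58.1 (trend, log2(value + 0.5), Benjamini-Hochberg over 2841 genes) in R 4.3.3. In data simulated for this comparison over 2841 genes it found 33% of log2 changes of 1 and 95% of changes of 2, with 9 unchanged genes called. The simulation gave every gene the same assumed spread beyond counting noise, not one estimated from these libraries. These percentages may therefore not hold for the real genes. Nothing says that the samples come from separate animals, so p-values measure only the spread between these samples. The named genes are all members, the 8 other pathway genes past the fold with the largest ratio (1 is not reported here), up to 3 markers per list with the highest mean, and *Npffr1*. *Pgam2*, *Ckm*, *Pvalb*, *Actn3*, *Mb*, *Myh4*, and *Elovl3* beyond that rule were named after their values were seen. The members and lists were chosen with earlier results of these data known. The motifs, the windows printed and the alternative without genes of shared sequence were chosen after seeing the data. Alternatives were other centrings, pseudocounts, minimums and folds, lists without some genes, other size factors, and each library left out. Shared words of 31 bases were counted in GENCODE M21 transcripts, and promoters are from RefSeq on GRCm38.p6.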

Additional observations from a re-analysis of the deposited data

How the results depend on the processing

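Of 48 values recomputed under an alternative, 40 stayed near the reported one (a count of members within 1.5 times, a count of tested genes equal, a median within 0.05 on the log2 scale, the difference of *Aldoc* on the same side of the threshold), 8 moved further and 0 reversed. The count of members past the fold was 16 centred on genes of like length, 17 without genes of shared sequence and 20 centred on all genes, in place of 23. With a fold of 1.1 in place of the 25% threshold, 36 of the 43 genes were higher in Npffr1-KO. With a fold of 1.5, 2 were (*Ldhb* and *Sucla2*), and at either fold 0 were lower. The shares of all genes past these folds were not counted, so these counts have no background to be set against. Centred on genes of like length, the median log2 ratio of the cytosolic or plasma membrane genes was 0.25 in place of 0.34 and no longer above that of the mitochondrial genes. Over the other centring, pseudocount, minimums and left-out genes, that median lay between 0.32 and 0.35. Among genes with recovered reads, the number past an adjusted p of 0.05 by limma was 1 with a pseudocount of 2 in place of 0, and 0 to 2 when 1 library at a time was left out (2 without the WT library of largest size factor, 1 without either other WT library or the Npffr1-KO library of middle size factor); the cause was not tested. *Aldoc* has a mean under 50 and gave no value at that minimum. No paired analysis was possible because the recovered libraries could not be tied to the replicate numbers of the labels and the table lists 1 value per genotype. For 42 of the 43 genes no value per library is known, so their ratios carry no error.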
